A study of Homo sapiens with 3 samples.

Results

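Macrophages sense antibody-coated particles and microbial sugars through Fc receptors and C-type lectin receptors, and 10 genes of these families were followed here: FCGR1A, FCGR2A, FCGR2B, FCER1G, CLEC4A, CLEC4D, CLEC4E, CLEC5A, CLEC7A, and CLEC10A. Every transcript probe that the array design lists under one of these gene names was read, which gave 14 of the 58201 transcript probes on the array. The RNA came from THP-1, a human monocytic leukemia line that the phorbol ester PMA turns into macrophage-like cells. All cells had received 100 ng/mL of PMA for 24 to 36 h and then an overnight rest in fresh medium. The Ctrl array carried RNA of these macrophages without activator, the IMQ array RNA after imiquimod (IMQ), which activates toll-like receptors, and the third array RNA of cells given the benzenoid DMD before IMQ. The third treatment is labeled IMQ+X and is called IMQ+DMD here, since DMD is the sole other compound that the protocol names. The sample titles state 4 h, the methods of the study describe a longer IMQ exposure for THP-1 cells in general, and the labels give no dose. Each group is 1 array of 1 cell line, so no replicate check and no p-value can be given for any difference below.

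Fcγ receptors bind the constant part of IgG. The activating ones signal through a tyrosine motif (ITAM), carried in their own tail in FCGR2A or on the FCER1G chain in FCGR1A. SRC family kinases phosphorylate the ITAM, SYK docks there, and CARD9, BCL10, and MALT1 pass the signal to NF-κB. The inhibitory FCGR2B carries an ITIM instead, which recruits the phosphatase SHIP, encoded by INPP5D. The C-type lectin receptors use the same machinery: CLEC4D and CLEC4E pair with FCER1G, CLEC5A pairs with the adaptor DAP12 (TYROBP), CLEC7A holds a single-tyrosine version of the ITAM, and CLEC4A holds an ITIM.

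The sequences of 3 Fc receptor probes are given, and for the FCGR2B probes also the part of the transcript that was read. The first FCGR2B probe crosses an exon junction, and the capitals mark the codons at the beginning of the ITIM. The second FCGR2B probe lies in the extracellular part. The FCGR1B probe is shown because FCGR1B is a near-identical copy of FCGR1A.
FCGR2B A_23_P34644: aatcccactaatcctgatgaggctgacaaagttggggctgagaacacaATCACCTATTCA
FCGR2B A_33_P3327617: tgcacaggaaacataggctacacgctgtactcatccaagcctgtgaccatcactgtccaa
FCGR1B A_23_P63390: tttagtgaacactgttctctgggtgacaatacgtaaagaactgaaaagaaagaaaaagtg
In the hg19 coordinates of the array design, the FCGR2B probes lie at chr1:161647120-161647289, which spans 170 bases for a probe of 60, and at chr1:161642959-161643018, both on the plus strand. The FCGR1B probe lies at chr1:120927294-120927353 on the minus strand.

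All values are intensities that the authors quantile normalized over the 3 arrays, and differences are on the log2 scale. The scanner software rated at least 66.6% of all probes on each array as well above background. Of the 14 receptor probes, 11 passed this mark on every array and the other 3 on no array, so 9 of the 10 genes had a usable probe. No spot of the 14 probes was saturated or marked as an outlier. Noise within an array was taken from 300 probes with 10 spots each, as the median SD between spots of similar brightness. The SD of a difference combines both arrays and is called the technical SD below. For dim spots it rests on few repeated probes, 2 to 7 in each brightness class below a log2 signal of 7, and it leaves out the spread between cultures. Differences were also taken under 6 scalings of the arrays: that of the authors, quantile normalization repeated here, the 75th percentile, no normalization, spike-in probes, and normexp background correction followed by quantile normalization.

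**Figure D1:**
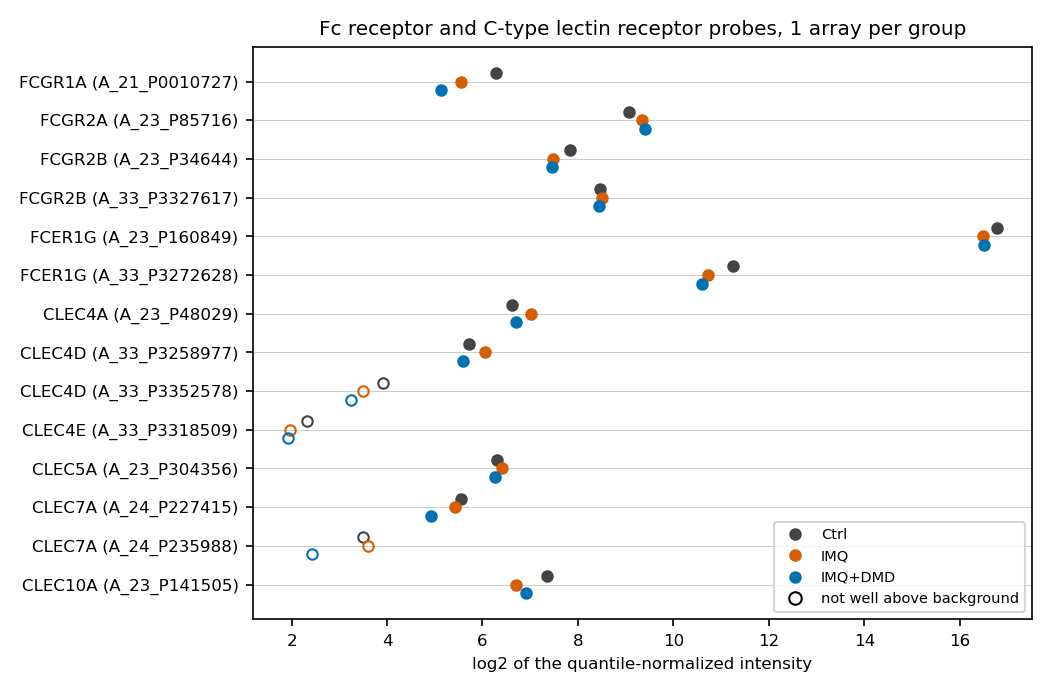
Quantile-normalized intensity (log2, horizontal axis) of the 14 receptor probes on the Ctrl, IMQ, and IMQ+DMD arrays, 1 array per group. Open circles mark values not well above background, which holds for 1 probe each of CLEC4D and CLEC7A and for the CLEC4E probe. Positions of different probes are not comparable levels of their genes.

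After IMQ, no receptor probe was 2-fold higher or lower than on the Ctrl array. The count was 0 of 11 probes at least 2-fold higher, beside 4.31% of all probes compared, and 0 of 11 at least 2-fold lower, beside 3.48%. The log2 differences ran from -0.73 for FCGR1A to 0.39 for CLEC4A, with 5 probes above 0 and 6 below. Their median was -0.14, and the median over all probes was -0.01. DMD before IMQ also moved no probe 2-fold from the IMQ array. The count was 0 of 11 in either direction, beside 1.09% of all probes higher and 1.31% lower, and the median log2 difference was -0.14 against -0.01 over all probes. IMQ+DMD against Ctrl had 0 of 11 probes at least 2-fold higher, beside 3.09%, and 1 of 11 at least 2-fold lower, beside 4.91%. The lower one was the FCGR1A probe, which is dim and listed under no RefSeq transcript of that gene. The 3 comparisons share arrays and are therefore not independent of each other.

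**Figure D2:**
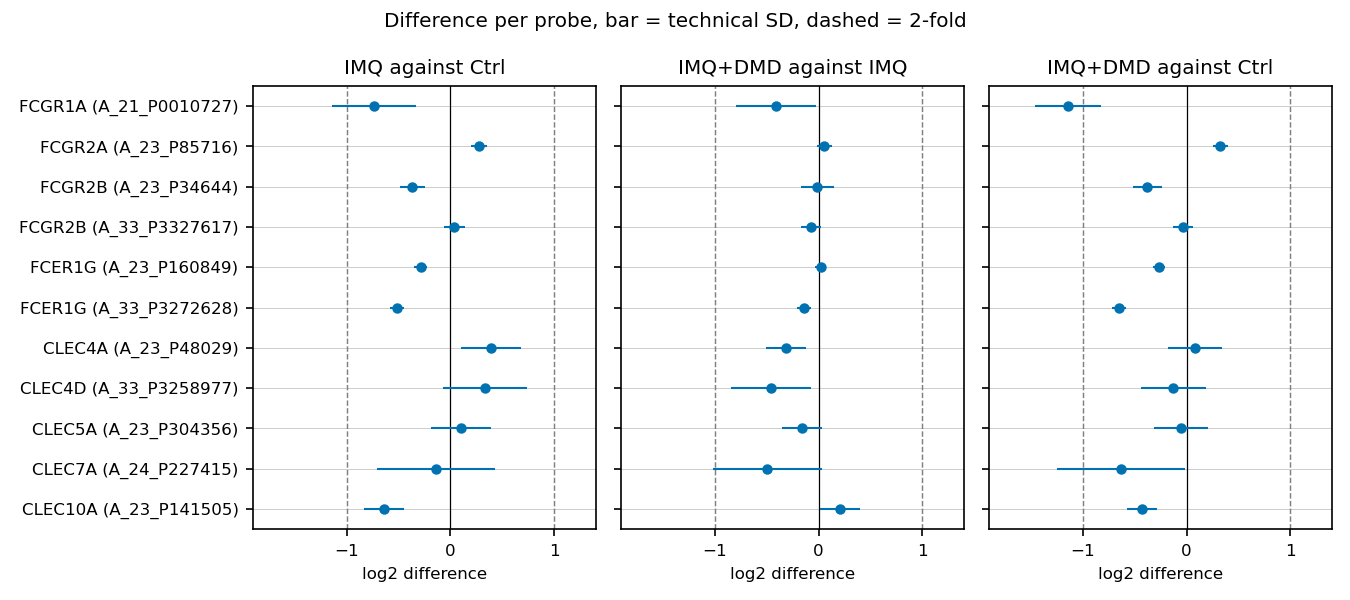
Log2 difference (horizontal axis) of the 11 receptor probes well above background, for each comparison of 2 arrays. Bars are the technical SD within arrays, and dashed lines mark 2-fold. FCGR1A in IMQ+DMD against Ctrl is the single point beyond a dashed line.

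FCGR1A encodes FcγRI, the high-affinity IgG receptor, which lacks a signaling motif of its own. Its probe gave a normalized intensity of 77.7 in Ctrl, 46.7 in IMQ, and 35.2 in IMQ+DMD. With the normalization of the authors, the value was thus highest without activator and lowest with DMD. Between IMQ+DMD and IMQ, other scalings gave smaller log2 differences: -0.10 with the 75th percentile, -0.04 without normalization, and 0.11 scaled to spike-in probes. The log2 difference was -0.73 for IMQ against Ctrl (technical SD 0.41) and -0.41 for IMQ+DMD against IMQ (technical SD 0.39). Relative to Ctrl, IMQ+DMD was 2.21-fold lower, a log2 difference of -1.14 with a technical SD of 0.31. With another background correction, normexp, this last difference was -0.61 and no longer reached 2-fold. This probe, at hg19 chr1:149755169-149755228, is listed under Ensembl transcripts and a long noncoding RNA but under no RefSeq transcript of FCGR1A.

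The near-identical copy FCGR1B had larger differences, on brighter spots. Its probe A_23_P63390, shown above, gave 9713 in Ctrl, 2958 in IMQ, and 1945 in IMQ+DMD. Its other probe, A_21_P0010728, gave 3682, 807, and 580.2 in the same order. Both probes had the order seen for FCGR1A, with Ctrl highest and IMQ+DMD lowest. IMQ against Ctrl was 3.28-fold lower for the first probe (log2 difference -1.72, technical SD 0.06) and 4.56-fold lower for the second (log2 difference -2.19, technical SD 0.07). IMQ+DMD against IMQ was lower by a further 1.52-fold for the first probe and 1.39-fold for the second, under the 2-fold mark. Whether the FCGR1B probes also bound transcripts of FCGR1A was not tested.

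FCGR2A encodes FcγRIIA, which carries its ITAM in its own tail. Its probe gave 539 in Ctrl, 651 in IMQ, and 676 in IMQ+DMD. IMQ was 1.21-fold higher than Ctrl, a log2 difference of 0.27 with a technical SD of 0.08, and IMQ+DMD differed from IMQ by 0.06 with a technical SD of 0.07. The Ctrl array was the lowest of the 3. The direction depended on the scaling, since the difference between IMQ and Ctrl was -0.23 with spike-in scaling. FCGR2C, whose tail comes from FCGR2A and whose extracellular part comes from FCGR2B, had 1 probe with a log2 difference of 0.23 for IMQ against Ctrl. The array design lists RefSeq transcripts of both genes under both probes, so FCGR2A and FCGR2C cannot be told apart.

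The 2 probes of FCGR2B, the inhibitory receptor, gave different results. The probe at the ITIM gave 229 in Ctrl, 178 in IMQ, and 177 in IMQ+DMD. For IMQ against Ctrl this was a log2 difference of -0.37 (technical SD 0.12), and the 2 IMQ-treated arrays were within 0.01 of each other. The probe in the extracellular part gave 354, 363, and 345, and its log2 difference for IMQ against Ctrl was 0.03 (technical SD 0.10). Only the ITIM probe was therefore outside 2 technical SDs. The extracellular part is shared with FCGR2C.

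**Figure D3:**
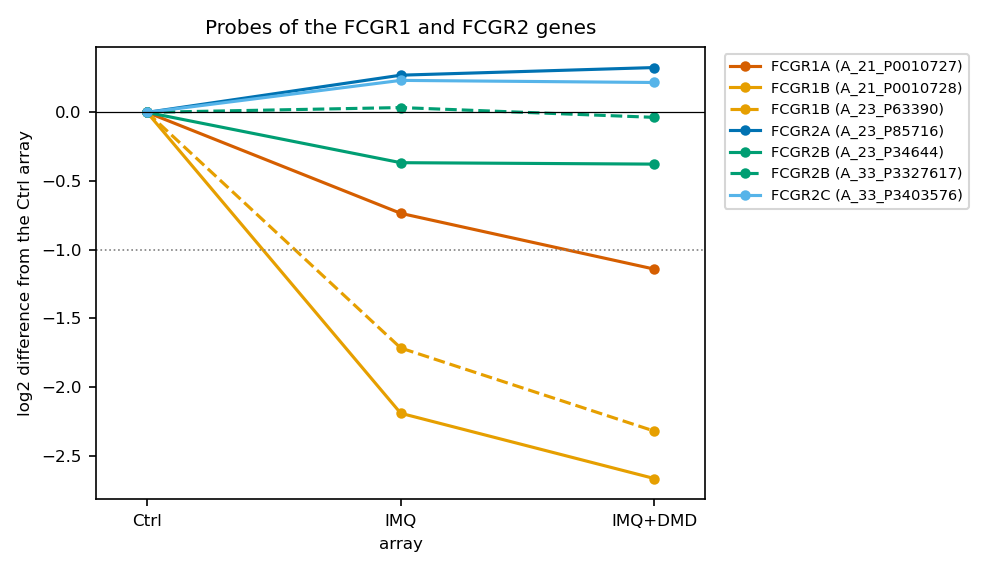
Log2 difference from the Ctrl array (vertical axis) of each probe of FCGR1A, FCGR1B, FCGR2A, FCGR2B, and FCGR2C on the 3 arrays. The dotted line marks 2-fold lower. Both FCGR1B probes lie below it on the IMQ and IMQ+DMD arrays, FCGR1A crosses it on the IMQ+DMD array, and all FCGR2 probes stay between -0.38 and 0.33.

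FCER1G, the ITAM-bearing γ chain that FCGR1A, CLEC4D, and CLEC4E depend on, was lower in both treated groups. Its probe A_23_P160849 gave 111891 in Ctrl, 91645 in IMQ, and 93065 in IMQ+DMD. The second probe, A_33_P3272628, listed under an Ensembl transcript alone, gave 2423, 1700, and 1543. The treated arrays lay below Ctrl for both probes. The log2 difference for IMQ against Ctrl was -0.29 (technical SD 0.06) for the first probe and -0.51 (technical SD 0.07) for the second. Both kept this direction under all 6 scalings of the arrays, with -0.07 the smallest difference of the first probe. IMQ+DMD against IMQ gave 0.02 and -0.14 on the same probes, and the second value was just past 2 technical SDs of 0.07.

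The FCER1G-coupled lectin receptors were dim. CLEC4E, the receptor Mincle for mycobacterial glycolipids, was not well above background on any array, with 5.02 in Ctrl, 3.91 in IMQ, and 3.82 in IMQ+DMD, so no fold is given. CLEC4D, its partner receptor, had 1 probe not well above background on any array, with values of 15.1, 11.3, and 9.46. The other CLEC4D probe gave 52.5 in Ctrl, 66.2 in IMQ, and 48.1 in IMQ+DMD. Here IMQ was the highest array, but its difference from Ctrl turned to -0.29 without normalization and to -0.38 scaled to spike-in probes. Neither the log2 difference of 0.33 for IMQ against Ctrl (technical SD 0.41) nor that of -0.46 for IMQ+DMD against IMQ (technical SD 0.39) exceeded 2 technical SDs.

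CLEC5A, a DAP12-coupled receptor for dengue virus, gave 79.3 in Ctrl, 85.2 in IMQ, and 76.5 in IMQ+DMD. The log2 difference was 0.10 for IMQ against Ctrl (technical SD 0.29) and -0.16 for IMQ+DMD against IMQ (technical SD 0.19). The first difference was below 0 in 3 of 6 scalings, down to -0.59. These arrays were not distinguishable at the noise of a spot this dim.

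CLEC7A encodes Dectin-1, the receptor for fungal β-glucan. Its probe A_24_P227415 gave 47.0 in Ctrl, 42.7 in IMQ, and 30.3 in IMQ+DMD. The IMQ+DMD array was the lowest, 1.41-fold below IMQ, which is a log2 difference of -0.49 with a technical SD of 0.53. Although this was the lowest of the 11 differences between IMQ+DMD and IMQ, it was smaller than the noise of its spots, and it was 0.03 scaled to spike-in probes. The other CLEC7A probe, not well above background on any array, gave 11.2, 12.2, and 5.42.

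CLEC4A, an ITIM-bearing lectin receptor also named DCIR, gave 98.6 in Ctrl, 129.5 in IMQ, and 104.5 in IMQ+DMD. IMQ was the highest array, with a log2 difference of 0.39 against Ctrl (technical SD 0.29), and IMQ+DMD was -0.31 from IMQ (technical SD 0.19). The order of Ctrl and IMQ for CLEC4A depended on the scaling, since the difference was -0.17 without normalization and -0.25 scaled to spike-in probes. CLEC10A, the receptor for terminal galactose and N-acetylgalactosamine, gave 162 in Ctrl, 104 in IMQ, and 121 in IMQ+DMD. Its log2 difference was -0.64 for IMQ against Ctrl (technical SD 0.19), or 1.56-fold lower, which is past 2 technical SDs. IMQ+DMD was 0.21 above IMQ (technical SD 0.19). CLEC10A was lower after IMQ and higher in IMQ+DMD than in IMQ under all 6 scalings, with log2 differences from -1.29 to -0.45 and from 0.14 to 0.61.

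Across the receptors, 1 of 11 probes lay more than 2 technical SDs above Ctrl after IMQ (FCGR2A) and 4 lay below it (CLEC10A, the ITIM probe of FCGR2B, and both FCER1G probes). Of all probes with a technical SD, 19.4% lay above by this measure and 19.9% below. Between IMQ+DMD and IMQ, 0 lay above and 1 below, the second FCER1G probe, beside 12.6% and 13.3% of all probes. Under the 6 scalings, 6 of 11 probes were lower in IMQ than in Ctrl each time, 0 were higher each time, and 5 changed sign. In the comparison of IMQ+DMD with IMQ, 9 of 11 changed sign. The share of all probes that kept or changed sign was not computed. These counts therefore do not set the receptors apart from other probes. The median of all probes for IMQ against Ctrl moved by -0.50 when the arrays were not normalized and by -0.58 when they were scaled to spike-in probes. Relative to that median, the receptor median was -0.13 as reported and -0.01 under both of these scalings.

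**Figure D4:**
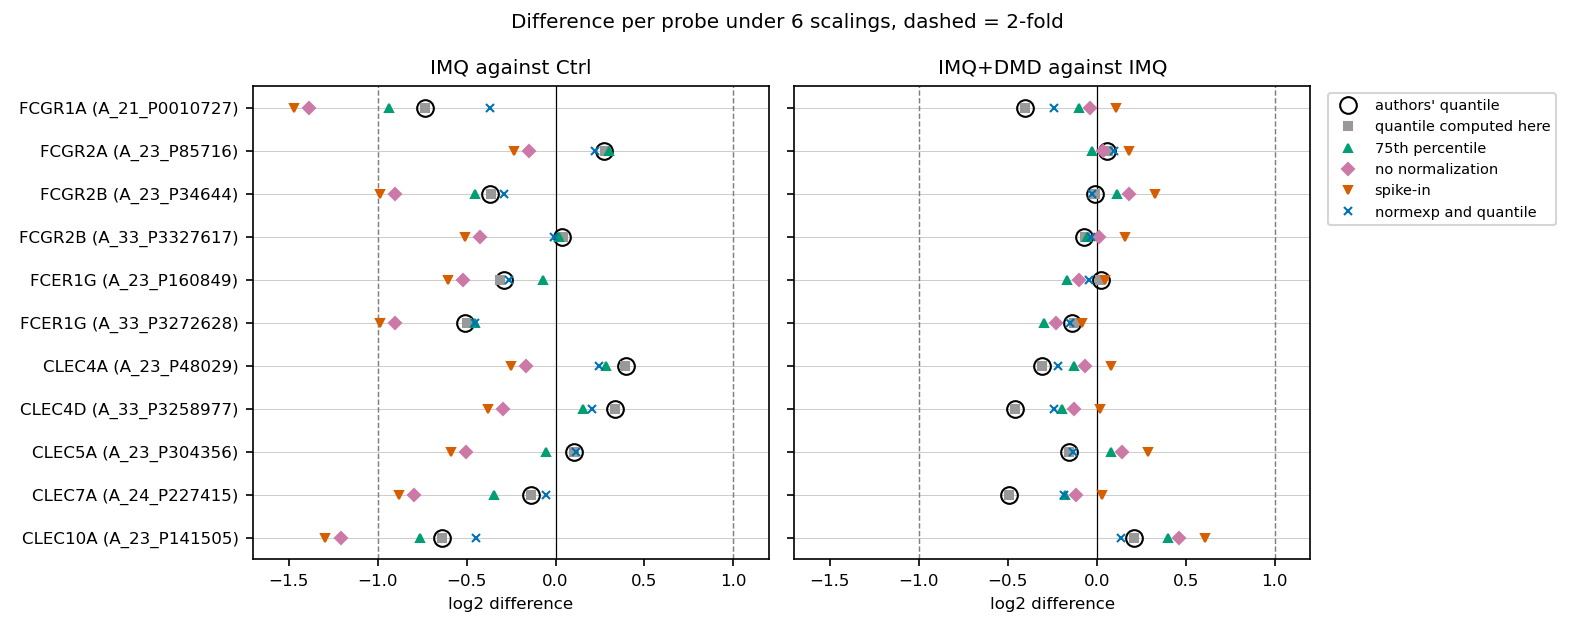
Log2 difference (horizontal axis) of the 11 receptor probes under 6 scalings of the arrays, for IMQ against Ctrl (left) and IMQ+DMD against IMQ (right). Dashed lines mark 2-fold. On the left, the points without normalization and with spike-in scaling lie below the others for every probe, and FCGR1A and CLEC10A pass 2-fold there.

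The genes around the receptors were read from 96 listed genes, taking for each gene the probe whose log2 values had the highest mean. Of all genes with an identifier, 4.29% were at least 2-fold higher and 4.5% at least 2-fold lower after IMQ, and the median log2 difference was -0.03. The shares for IMQ+DMD against IMQ were 0.835% higher and 0.98% lower, and for IMQ+DMD against Ctrl 3.38% and 5.97%.

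Among the other Fc receptors, 15 of 18 genes with a probe could be compared for IMQ against Ctrl, with 1 at least 2-fold higher and 2 lower and a median of -0.23. FCAR, the IgA receptor, gave 152 in Ctrl, 495 in IMQ, and 524 in IMQ+DMD, which made IMQ 3.25-fold higher than Ctrl. Its other probe had a log2 difference of 2.34 against 1.70 for this one. FCGR3A, an IgG receptor of macrophages and natural killer cells, gave 161 in Ctrl, 71.7 in IMQ, and 89.0 in IMQ+DMD. IMQ was 2.25-fold lower for FCGR3A, past 2-fold in 5 of 6 scalings, and the second lower gene was FCGR1B. Thus FCAR was higher after IMQ, whereas FCGR1B and FCGR3A were lower.

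Among the other C-type lectin receptors and genes with such a domain, 23 of 27 could be compared, with 2 at least 2-fold higher, 0 lower, and a median of -0.15. This count takes 1 probe per gene. Other probes of CLEC2D and CLEC12B had log2 differences up to 1.29 and 1.17, beside -0.32 and -0.11 for the probes counted. OLR1, a receptor for oxidized lipoprotein, gave 192 in Ctrl, 918 in IMQ, and 493 in IMQ+DMD. THBD, thrombomodulin, gave 9659, 32412, and 32018. OLR1 was 4.77-fold higher in IMQ than in Ctrl and 1.86-fold lower in IMQ+DMD than in IMQ, whereas THBD was 3.36-fold higher and then level. Between IMQ+DMD and IMQ, 0 of 15 other Fc receptors and 0 of 23 other lectin receptors reached 2-fold in either direction.

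In the ITAM, SYK, and CARD9 signaling list, 3 of 25 genes were at least 2-fold higher after IMQ and 4 at least 2-fold lower, with a median of -0.21. MALT1, the protease in the CARD9 complex, gave 62.0 in Ctrl, 343 in IMQ, and 243 in IMQ+DMD, 5.53-fold higher with IMQ. CARD9 itself gave 16527, 7218, and 5825, and IMQ was 2.29-fold lower, with the same log2 difference of -1.20 on its other probe. Members of one signaling complex thus differed in direction. BCL10, the third member, was not well above background on any array. SYK gave 10445 in Ctrl, 5471 in IMQ, and 5299 in IMQ+DMD, which is 1.91-fold lower for IMQ and just short of the mark.

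The kinases SRC (3.31-fold) and LYN (2.12-fold), which phosphorylate ITAMs, were the other genes higher after IMQ, and LYN passed 2-fold in 4 of 6 scalings. The lower genes besides CARD9 were PIK3CD, a phosphoinositide kinase subunit (2.84-fold), NFATC1, a transcription factor (2.35-fold), and BLNK, an adaptor phosphorylated by SYK (at least 5.41-fold, since IMQ was not well above background). Other probes of these 3 genes had smaller log2 differences of -0.27, -0.49, and -0.68. The bound for BLNK holds with the normalization of the authors, and over the 6 scalings its log2 difference ran from -3.21 to -1.27. No gene of this list reached 2-fold between IMQ+DMD and IMQ (0 of 24), and the median was -0.25, below the -0.01 over all genes. IMQ+DMD against Ctrl had 2 of 25 higher (MALT1 and SRC) and 6 lower, which added BTK and LAT2. The other LAT2 probe differed in direction for IMQ against Ctrl, at 0.57 beside -0.83.

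Among the phosphatases and adaptors of inhibitory receptors, 0 of 10 genes were at least 2-fold higher after IMQ and 3 were lower, with a median of -0.36. INPP5D, the lipid phosphatase that FCGR2B recruits, gave 31814 in Ctrl, 11083 in IMQ, and 9595 in IMQ+DMD. IMQ was 2.87-fold lower for INPP5D, 2.82-fold lower for the adaptor DOK2, and 3.77-fold lower for PTPN22, a tyrosine phosphatase. INPP5D and DOK2 kept this under all 6 scalings and PTPN22 under 5. PTPN22 was also at least 2.04-fold lower in IMQ+DMD, where it was not well above background, than in IMQ, but it reached 2-fold in 2 of 6 scalings for that comparison. PTPN6, which encodes SHP-1, gave 1801, 1740, and 1914 and stayed within 2-fold. DOK3 had a log2 difference of -0.58 for IMQ against Ctrl on the probe counted, and its 2 other probes ranged from -1.33 to 0.12.

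In the TREM and DAP12 list, 1 of 13 genes was at least 2-fold higher after IMQ and 2 were lower, with a median of -0.09. TYROBP, the adaptor of CLEC5A, gave 237219 in Ctrl, 223150 in IMQ, and 227349 in IMQ+DMD, a log2 difference of -0.09 for IMQ against Ctrl (technical SD 0.05). The higher gene was SIRPB1, a DAP12-coupled receptor (2.58-fold), whose 5 other probes ranged from -0.32 to 0.89. The lower genes were TREM2, a lipid receptor (2.02-fold), and TREML2 (2.01-fold), both close to the mark. CD300E had a log2 difference of 0.09 on the probe counted and 1.30 on its other probe. Between IMQ+DMD and IMQ, 0 of 14 genes reached 2-fold. IMQ+DMD against Ctrl had 1 of 14 higher (SIRPB1, 2.62-fold) and 1 lower (TREML1, 2.75-fold).

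The counts in these lists depended on the scaling of the arrays, and so did those over all probes. The list counts are of genes, each read from 1 probe. Counts over all genes were made only with the normalization of the authors. Counts over all probes stand beside the lists here and are not the same unit. For IMQ against Ctrl, 1432 of 41107 probes were at least 2-fold lower and 1773 higher with the normalization of the authors. Without normalization, 6669 of 42691 were lower and 732 higher, with a median of -0.51. Scaled to spike-in probes, 8289 of 42595 were lower and 648 higher, with a median of -0.60. In the same order, 5 of 23 and 7 of 22 other lectin receptors were at least 2-fold lower after IMQ in place of 0. Their medians were -0.57 and -0.68. The ITAM, SYK, and CARD9 list then had 2 of 25 genes higher and 8 lower under both scalings, with medians of -0.60 and -0.69. With the 75th percentile it had 6 higher and 4 lower, beside 1519 higher and 1924 lower of 42111 probes. The other Fc receptors had 1 higher and 3 lower under both, with medians of -0.63 and -0.71. The phosphatase list had 3 and 4 lower, with medians of -0.71 and -0.80. The TREM and DAP12 list had 0 higher and 4 lower under both, with medians of -0.39 and -0.47. For IMQ+DMD against Ctrl, the ITAM, SYK, and CARD9 list had 11 genes lower under both in place of 6. Of all probes, 4511 of 43384 and 3942 of 43535 were lower in place of 2146 of 43692. For IMQ+DMD against IMQ, scaled to spike-in probes, 2 of 22 other lectin receptors and 1 of 16 other Fc receptors were at least 2-fold higher. The count over all probes was 2822 of 42424.

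**Figure D5:**
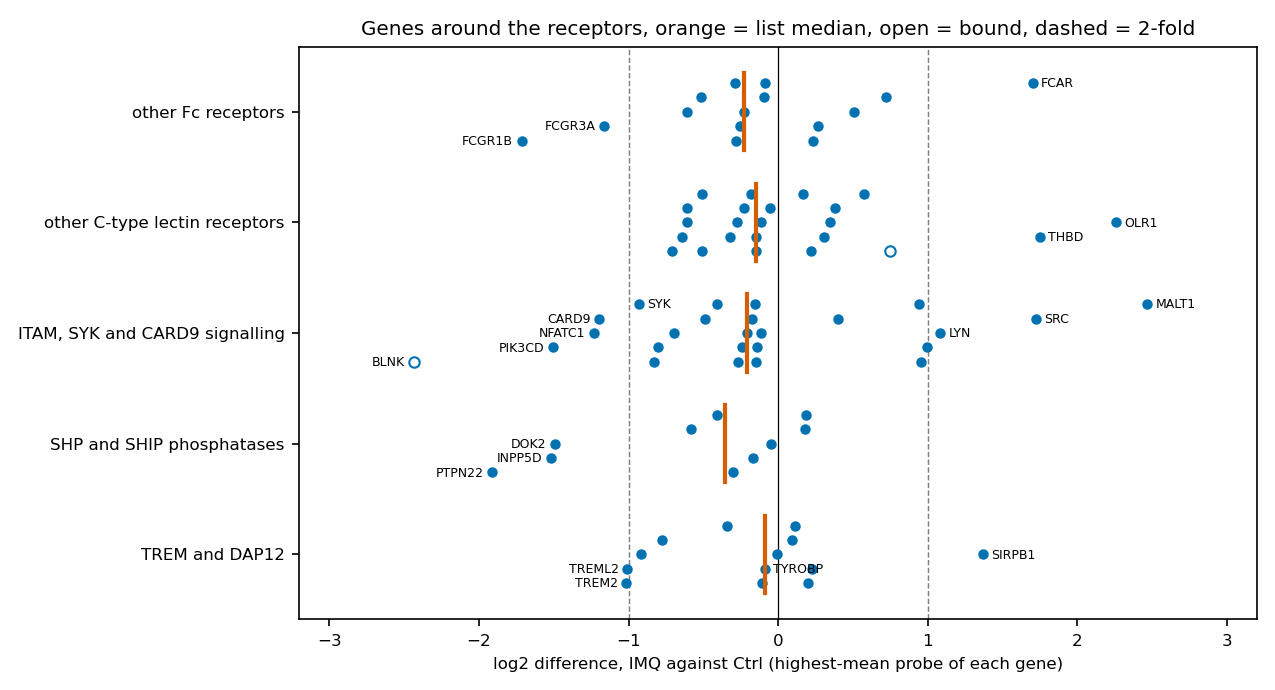
Log2 difference of IMQ against Ctrl (horizontal axis) for each gene of 5 lists around the receptors, 1 point per gene. Orange bars are list medians, open circles are bounds, and dashed lines mark 2-fold. With the normalization of the authors, the list medians lie between -0.36 and -0.09, and the labeled points include MALT1 at 2.47 and BLNK at -2.44.

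The label of the cells was checked against marker genes. Each of the 8 monocyte and macrophage markers with a probe, of 10 listed, exceeded background on the 3 arrays. Their summed intensity was 345026 in Ctrl, 262040 in IMQ, and 240168 in IMQ+DMD, and CSF1R alone gave 224896 of the sum in Ctrl. After IMQ the median log2 difference of the 8 genes from Ctrl was -0.49, although ITGAX and SPI1 were 0.44 and 0.04 higher. Their median difference between IMQ+DMD and IMQ was 0.02. The 2 epithelial markers were above background on none. The 3 T cell markers (sums of 688, 592, and 697) and the 3 B cell markers (4671, 3800, and 4511) were above background on every array, and 2 of 3 natural killer cell markers were (sums of 984, 803, and 717). One of the latter, NCAM1, gave 35.1 in Ctrl, 297 in IMQ, and 188 in IMQ+DMD, whereas KLRD1 was above background on no array. Of 4 dendritic cell markers, 2 of which are also in the lectin list, 3, 3, and 2 were above background, with sums of 526, 184, and 147. The macrophage, dendritic, and natural killer sums were lower on both treated arrays than on the Ctrl array, and their part in the receptor differences was not tested. All arrays carried RNA of the same cell line, so these sums are transcript levels in that line and do not count cells of separate types. In RNA of whole cultures, fewer cells of the line with a transcript and less of it per cell cannot be told apart.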

How the data were processed

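RNA of the 3 groups was hybridized to 3 one-color arrays with probes of 60 bases on 1 slide. Per the file headers, the scanner output came from Feature Extraction 10.5.1.1, with an intensity, a local background, and quality marks for each spot. The authors deposited a table of raw intensity and of quantile-normalized intensity, and the latter was used, as log2. The well above background mark was taken from the deposited scanner output, by the majority of spots for probes with 10 spots. A probe was compared if it was well above background on the brighter array. A dim value was raised to the floor, a normalized intensity of 16.5 (Ctrl), 23.8 (IMQ), or 16.9 (IMQ+DMD), the lowest among probes above background, and such folds are bounds. A call needed 2-fold or more. No test was run because each group had 1 array, whose number sets the precision. All receptor probes were reported. From the listed genes, those at least 2-fold different in any comparison and SYK, CARD9, TYROBP, and FCGR3A were to be named. PTPN6, BCL10, CLEC2D, CLEC12B, DOK3, and CD300E were added after their values were seen, and not every comparison of each is printed. The receptors and lists were chosen with earlier results of these data known. Python 3.11.15 (numpy 2.4.6, pandas 2.3.3), R 4.3.3, and limma 3.58.1 were used, and plots were drawn with matplotlib 3.10.9. The calling step was tested on simulated data. Alternatives were quantile normalization computed here, scaling to the 75th percentile, no normalization, scaling to 8 spike-in control probes (35 spots per probe), normexp with an offset of 50, other filters, and thresholds of 1.5-fold and 4-fold.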

Additional observations from a re-analysis of the deposited data

How the results depend on the processing

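Each count of receptor probes past 2-fold and each median was recomputed under the alternatives. For IMQ against Ctrl, the count of lower probes was 0 as reported and 2 without normalization, with spike-in scaling, or at a 1.5-fold threshold. Of all probes, 6669 of 42691 were at least 2-fold lower without normalization and 8289 of 42595 with spike-in scaling. Against IMQ, the IMQ+DMD count was 0, and 1 of 14 with no filter and no floor, beside 2229 of all 58201 probes. Against Ctrl the IMQ+DMD count was 1, and 2 without normalization, with spike-in scaling, or with no filter and no floor. The counts over all probes were 4511 of 43384, 3942 of 43535, and 3828 of 58201 in that order. At a 1.5-fold threshold the IMQ+DMD count against Ctrl was 3. With normexp, beside 983 of 43652 probes, or at a 4-fold threshold it was 0. Shares of all probes at 1.5-fold and 4-fold were not computed. Counts of higher probes were 0 under every setting run. The median log2 difference for IMQ against Ctrl was -0.14, but without normalization it was -0.52 and scaled to spike-in probes -0.60. The median of IMQ+DMD against IMQ was -0.14, and 0.11 scaled to spike-in probes. That of IMQ+DMD against Ctrl was -0.27, but -0.62 unnormalized and -0.56 scaled to spike-in probes. The cause of these moves was not tested. The 1 call, the FCGR1A probe that is listed under no RefSeq transcript of the gene, kept its direction under all settings. Over all probes, the share of calls that were higher was 55.3% for IMQ against Ctrl, but 44.1% with the 75th percentile, 9.89% without normalization, and 7.25% scaled to spike-in probes. The share for IMQ+DMD against IMQ was 45.5%, but 82.7%, 87.8%, and 94.4% in that order, and with normexp 24 probes were higher and 40 lower in place of 447 and 535. That for IMQ+DMD against Ctrl was 38.6%, but 13.0% unnormalized and 16.0% scaled to spike-in probes. Averaging the 2 usable probes of FCER1G and of FCGR2B moved 5 of 6 values by more than the technical SD, and CLEC4D and CLEC7A had 1 usable probe each, so nothing could be averaged. No paired analysis was possible because each group holds 1 array. Leaving out an array or using the slide as a block could not be run for the same reason.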
